A study of Mus musculus with 36 samples.

Results

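Peroxiredoxins and the enzymes that work beside them on superoxide and hydrogen peroxide were followed as 10 genes: Prdx1, Prdx2, Prdx3, Prdx4, Prdx5, Prdx6, Sod1, Sod2, Cat and Gpx1. They were taken by gene symbol from a table of 21654 genes, and all 10 are listed there and passed the filter on low counts that 13201 genes passed. The data are RNA sequencing counts from the livers of 36 C57BL/6 mice, 18 wild type and 18 with a Bmal1 knockout that the series describes as prenatal. Livers were taken at Zeitgeber time (ZT, hours after lights on) 0, 4, 8, 12, 16 and 20 from 3 mice per genotype and time, with light for 12 h of each day and food always present. By label each genotype had 9 females and 9 males, wild-type mice were 6.4 to 13.9 weeks old (median 10.9) and knockout mice 8.0 to 13.9 weeks old (median 13.9). The labels also call the knockout line cKO, and no Cre driver or cell type of deletion is given in the sources used here. Each library is one mouse, and the labels do not say whether mice of a group shared a litter or a preparation day. They name 20 cages, of which 5 held mice of both genotypes.

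Peroxiredoxins are thiol peroxidases that reduce hydrogen peroxide and other peroxides through a reactive cysteine. Thioredoxin reduces most of them again after each cycle, and sulfiredoxin repairs the over-oxidised form, whose abundance cycles over the day in many organisms. Superoxide dismutases turn superoxide into hydrogen peroxide, which catalase removes in peroxisomes and glutathione peroxidase 1 removes with glutathione. Hepatocytes hold many mitochondria and peroxisomes, where some of these enzymes act. BMAL1 is the obligate partner of CLOCK in the transcription factor that binds E-boxes and drives the circadian clock.

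Over all 6 times, 5 of the 10 genes differed between genotypes. Prdx1, the abundant cytosolic peroxiredoxin, and Prdx3, the mitochondrial one, were higher in the knockout with log2 fold changes of 0.37 ± 0.12 and 0.22 ± 0.08 (± SE, 18 knockout against 18 wild-type mice). For Prdx1 that is 1.29-fold. Gpx1, Cat and Sod2, the manganese superoxide dismutase of mitochondria, were lower, with log2 fold changes of −0.36 ± 0.11, −0.27 ± 0.07 and −0.23 ± 0.04. Prdx2, Prdx4, Prdx5, Prdx6 and Sod1 did not pass the test. In the same edgeR quasi-likelihood test with Benjamini-Hochberg adjustment over 13201 genes, 35.7% of all genes were called at an adjusted p under 0.05, 17.6% higher and 18.1% lower. A count of 5 in 10 is to be read against that share. The median log2 difference of the 10 genes was −0.08, beside 0.01 for all tested genes.

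Total deposited counts lay between 12657858 and 12839653 per library, so these totals hardly differed between the groups. Whether the counts had been brought to a common total before deposit was not examined, so the totals do not give the original depth. The 12 libraries of ZT16 and ZT20 stood apart from the other 24 on the first principal component (14.2 to 102.5 against −37.2 to −12.5). In them a gene's deviation from its mean over all libraries ran against the GC content of its transcript, with a rank correlation across genes of −0.608 to −0.157, where the other 24 had 0.155 to 0.469. Time and these library properties cannot be told apart where ZT16 and ZT20 are set against the earlier times. Results that rest on ZT16 and ZT20 are given with and without them. Within single groups the first principal component varied too, in wild type at ZT16 from 16.9 to 102.5. Replicate 3 of wild type at ZT16 is labelled female but held 4 Xist reads and 4441 reads of 4 Y-linked genes. The other 17 libraries labelled female held 6910 to 15138 Xist reads and at most 15 Y-linked reads, and the 18 labelled male at most 25 and at least 2043. The label was kept, so the fits with labelled sex include this library as a female. Bmal1 itself, listed as Arntl, kept 14.6 to 24.01 CPM (the count scaled to a common library size) in the knockout against 0.793 to 41.3 in wild type. Which part of the gene those reads cover was not examined, so its level does not check the labels. The clock output gene Dbp lay between 3.23 and 8.35 CPM in all 18 knockout livers and between 0.585 and 331 in wild type, and Npas2, a paralog of Clock, was higher in the knockout by 5.56 ± 0.17 on the log2 scale (edgeR, adjusted p = 6.9e-20).

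Stretches of promoter around short motifs are shown for 5 of the 10 genes. Such letters are known to be bound by CLOCK with BMAL1, DBP and its relatives, the oxidative stress factor NRF2 or nuclear receptors. RefSeq promoters (GRCm38.p6, 250 bases before to 50 bases after the gene's start) were matched for 9 genes, all but Prdx6. Both strands were searched for an E-box (CACGTG, bound by CLOCK and BMAL1), a D-box (TTATGNAA, bound by DBP and its relatives), the core of an antioxidant response element (TGACNNNGC, bound by NRF2) and a nuclear receptor monomer site (AGGTCA). Each line runs 5′ to 3′ along the strand of the gene, with 25 bases on each side, and capitals mark the match. The number after the gene is the position of the match, where −1 is the base before the start.
Prdx4, E-box at −52, chrX:155338482-155338537, minus strand: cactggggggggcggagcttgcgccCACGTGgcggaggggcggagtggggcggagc
Prdx1, antioxidant response element core at −133, chr4:116685441-116685499, plus strand: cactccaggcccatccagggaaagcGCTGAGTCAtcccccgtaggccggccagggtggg
Sod1, antioxidant response element core at −56, chr16:90220681-90220739, plus strand: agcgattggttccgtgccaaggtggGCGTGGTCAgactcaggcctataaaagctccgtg
Prdx3, D-box at −101, chr19:60874607-60874664, minus strand: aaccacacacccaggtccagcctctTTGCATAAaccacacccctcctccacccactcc
Prdx3, nuclear receptor monomer site at −190, chr19:60874698-60874753, minus strand: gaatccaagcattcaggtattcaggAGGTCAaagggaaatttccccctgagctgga
Cat, nuclear receptor monomer site at −204, chr2:103485327-103485382, minus strand: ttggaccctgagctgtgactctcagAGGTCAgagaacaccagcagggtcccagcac
Of 32851 mouse promoters of this length, 7.15% hold the E-box, 12.4% the antioxidant core, 3.38% the D-box and 16.3% the monomer site. These matches are letters in a window and not measured binding sites. In the windows of Prdx2, Prdx5, Sod2 and Gpx1 none of the 4 motifs was found, which says nothing about binding elsewhere.

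**Figure D1:**
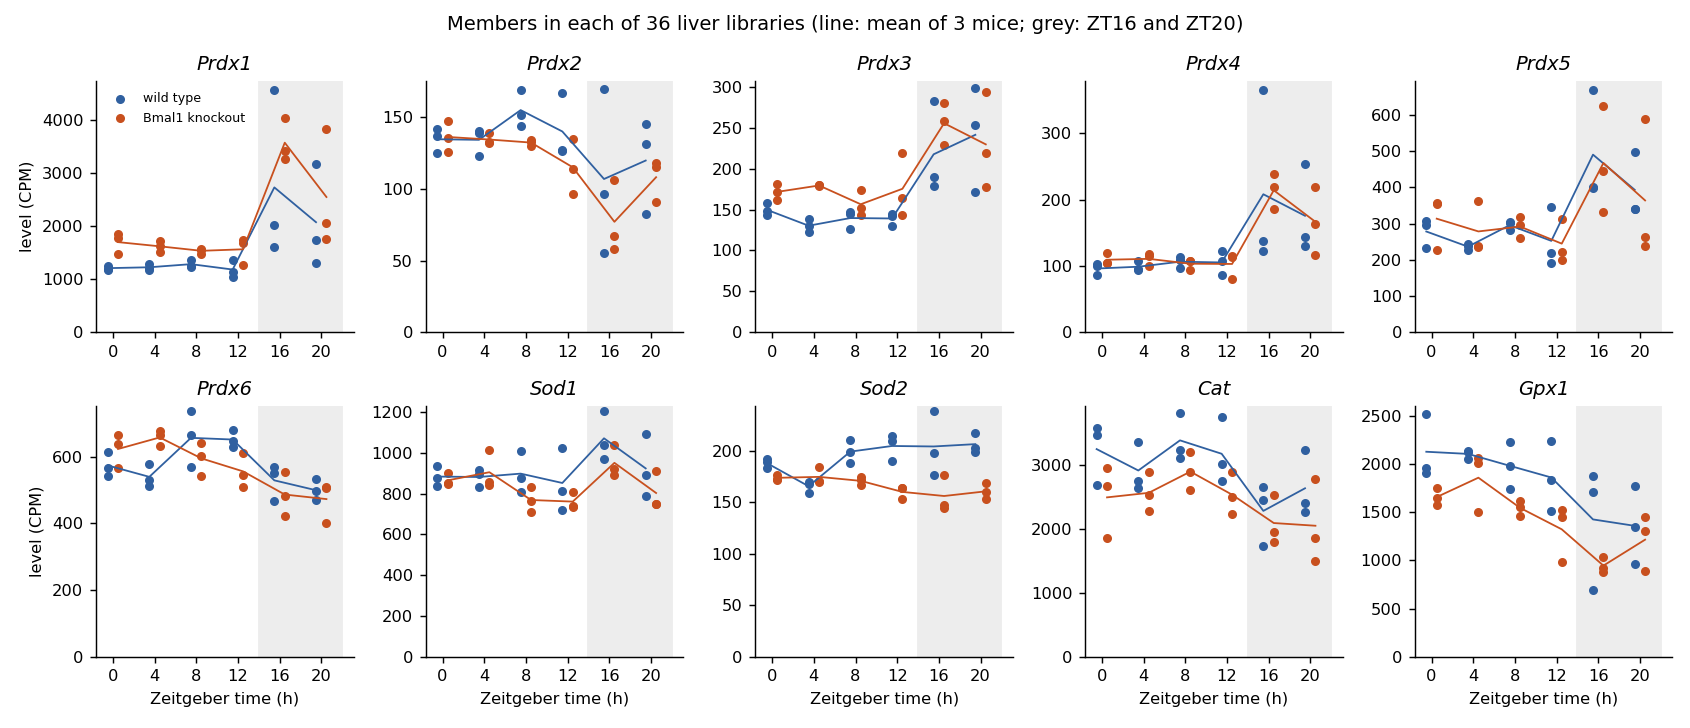
Level of each gene in CPM (vertical axis, from 0) against Zeitgeber time in hours, in each of 36 livers; points are single mice, lines join means of 3 mice, blue is wild type and orange Bmal1 knockout, and grey marks ZT16 and ZT20. Prdx1 at ZT0 lay at 1179 to 1245 CPM in wild type and 1467 to 1845 in the knockout, and the widest spread within a group is at ZT16 or ZT20 for all genes but Prdx6 and Sod1.

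Prdx1 had the largest rise among the 10 genes. At ZT0 the 3 wild-type livers held 1245, 1199 and 1179 CPM and the 3 knockout livers 1845, 1785 and 1467. At ZT4 wild type held 1288, 1216 and 1169 CPM and the knockout 1518, 1713 and 1628. At ZT8 the values were 1364, 1249 and 1237 CPM in wild type against 1555, 1481 and 1569. The genotypes did not overlap at these 3 times, with every knockout liver above every wild-type liver. Groups do not overlap, in either direction, for 25.4% of all tested genes at ZT0, 25.5% at ZT4 and 31.8% at ZT8. At ZT12 wild type held 1369, 1132 and 1044 CPM and the knockout 1273, 1737 and 1682, so 1 knockout liver fell within the wild-type range. At ZT16 the levels were 4563, 1612 and 2020 CPM in wild type and 4047, 3261 and 3418 in the knockout. At ZT20 they were 1746, 1303 and 3176 CPM against 2060, 3838 and 1753. At these last times the ranges overlapped, and mice of 1 group lay further apart than at any earlier time. Within each group of ZT16 and ZT20, Prdx1 had the order of the libraries on the first principal component. At ZT16 that component was 102.5, 16.9 and 36.9 in wild type and 92.2, 60.6 and 66.8 in the knockout. At ZT20 it was 41, 15.2 and 82.8 against 19.7, 78 and 14.2. The part of these library properties in the Prdx1 levels was not tested.

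The table places Prdx1 at chr4:116358149-116373427 and Prdx3 at chr19:60939954-60950459 in mm9. The difference in Prdx1 over all times was 0.37 ± 0.12 on the log2 scale (edgeR, adjusted p = 0.016). Without ZT16 and ZT20 it was 0.38 ± 0.06 (edgeR, adjusted p = 3.2e-05), and with the GC trend of each library removed 0.40 ± 0.08 (adjusted p = 0.00041). The same 5 of the 10 genes were called in both of these fits, where 41.2% and 39% of all genes were. From the libraries of ZT16 and ZT20 alone the difference was 0.30 ± 0.33 (edgeR, adjusted p = 0.76).

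Prdx3, whose product is the main peroxide-reducing thiol enzyme of the mitochondrial matrix, held 158, 144 and 148 CPM in wild type and 162, 182 and 172 in the knockout at ZT0. At ZT4 wild type held 139, 130 and 122 CPM and the knockout 180, 179 and 180. The groups did not overlap at either time, the knockout being higher. At ZT8 the levels were 147, 145 and 127 CPM in wild type and 151, 144 and 175 in the knockout. At ZT12 they were 131, 142 and 145 CPM against 143, 219 and 164. From ZT8 on the ranges overlapped. At ZT16 the wild-type levels were 283, 191 and 179 CPM and the knockout levels 229, 258 and 281. At ZT20 they were 254, 172 and 299 CPM against 219, 293 and 177.

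The Prdx3 difference over all times had an adjusted p of 0.023 (edgeR). A single library decided the call: without replicate 2 of the knockout at ZT20 it was 0.17 on the log2 scale with an adjusted p of 0.059. Without ZT16 and ZT20 it was 0.28 ± 0.06 (edgeR, adjusted p = 0.00043), and from those times alone 0.07 ± 0.20 (adjusted p = 0.94).

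The other 4 peroxiredoxins gave no call over all times. Prdx2, a cytosolic peroxiredoxin that is also very abundant in red blood cells, ranged from 55.0 to 170 CPM in wild type (median 138) and from 57.8 to 148 in the knockout (median 128). At ZT8 its ranges parted, at 144 to 169 CPM in wild type and 130 to 134 in the knockout (31.8% of all tested genes parted there). Over all times the log2 difference of Prdx2 was −0.18 ± 0.10 (edgeR, adjusted p = 0.17). Without replicate 1 of wild type at ZT16, which held 55.0 CPM beside 170 and 96.3 in its group, the adjusted p was 0.019. Red blood cell markers were measured beside it: 1 of 6 tested, Alas2, was lower in the knockout, at −0.56 ± 0.21 on the log2 scale (edgeR, adjusted p = 0.037), and their part in the Prdx2 values was not tested. None of the 6 was called without ZT16 and ZT20, Alas2 being at −0.25 ± 0.20 (adjusted p = 0.33). At ZT0 to ZT12 the markers summed to 33.6 to 266 CPM in wild type and 9.08 to 215 in the knockout. At ZT16 and ZT20 the sums were 29.7 to 419 and 17.2 to 136.

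Prdx4, the peroxiredoxin of the endoplasmic reticulum, differed by 0.04 ± 0.12 on the log2 scale (edgeR, adjusted p = 0.82, 95% interval −0.20 to 0.28). At ZT0 its ranges parted, at 85.8 to 102.6 CPM in wild type and 104.5 to 118.7 in the knockout (25.4% of all tested genes parted there). Prdx5, found in mitochondria, peroxisomes and cytosol, differed by −0.00 ± 0.09 (adjusted p = 0.98, interval −0.19 to 0.19). Prdx6, the 1-cysteine peroxiredoxin that also acts on phospholipids, differed by −0.03 ± 0.05 (adjusted p = 0.72, interval −0.14 to 0.08). Its genotype ranges parted at ZT4, upward, from 511 to 579 CPM in wild type to 631 to 677 in the knockout. They parted again at ZT12, downward, from 628 to 679 CPM to 510 to 612. Groups parted for 28.3% of all tested genes at ZT12, 17.1% at ZT16 and 12.4% at ZT20. Pseudogenes Prdx6-ps1 and Prdx6-ps2 held at most 8 and 2 reads in any library.

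**Figure D2:**
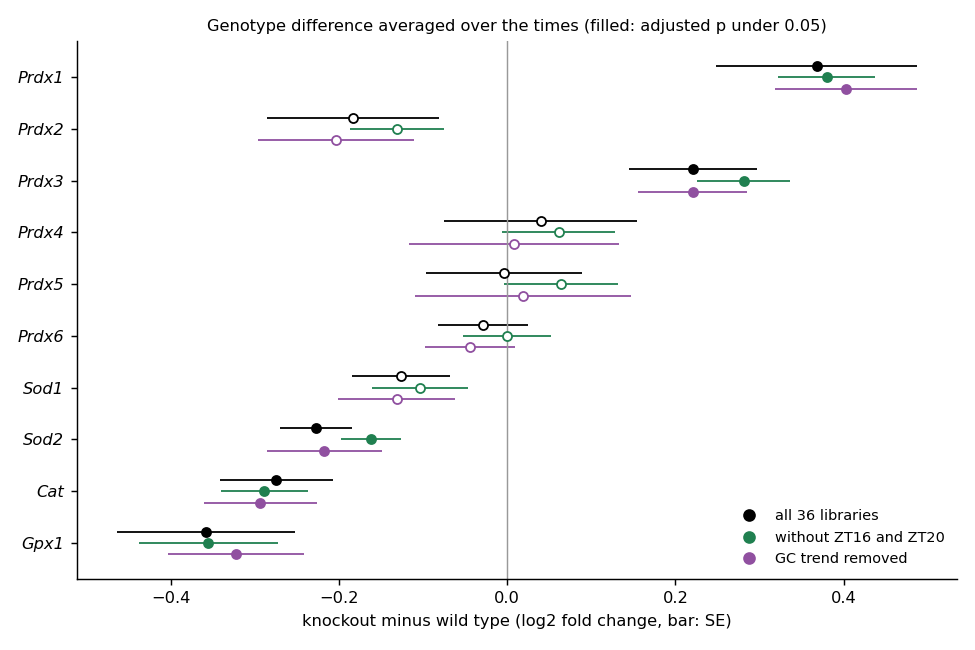
Knockout minus wild type averaged over the times, as log2 fold change with its SE (horizontal axis), for the 10 genes under 3 settings: all 36 libraries (black), without ZT16 and ZT20 (green) and with the GC trend of each library removed (purple); filled points have an adjusted p under 0.05. Prdx1, Prdx3, Sod2, Cat and Gpx1 are filled under each setting shown.

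The mean level of Sod2 lay below wild type in the knockout at 5 of the 6 times. At ZT0 wild type held 183, 189 and 192 CPM and the knockout 172, 176 and 173. At ZT4 the order was not kept, with 159, 168 and 170 CPM in wild type against 169, 170 and 184. The ranges overlapped only there and at ZT16. At ZT8 wild type held 211, 199 and 189 CPM and the knockout 172, 167 and 174. At ZT12 the levels were 214, 210 and 190 CPM against 153, 164 and 164. In each of these groups every knockout liver lay below every wild-type liver. At ZT16 wild type held 176, 239 and 198 CPM and the knockout 148, 177 and 144. At ZT20 the values were 217, 199 and 203 CPM against 160, 169 and 153. Separation in 1 direction at 3 or more times held for 17.2% of all tested genes, and among the 10 genes for Prdx1 (upward) and Sod2 (downward).

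Sod2 lies at chr17:13200705-13210985, Cat at chr2:103294006-103325317 and Gpx1 at chr9:108241607-108242671 in mm9. The Sod2 difference over all times had an adjusted p of 0.00014 (edgeR) and stayed between −0.25 and −0.21 on the log2 scale when any single library was left out. Without ZT16 and ZT20 it was −0.16 ± 0.04 (edgeR, adjusted p = 0.0012). Cu/Zn superoxide dismutase, Sod1, which works mainly in the cytosol, ranged from 721 to 1207 CPM in wild type and from 711 to 1041 in the knockout. Its difference of −0.13 ± 0.06 gave an adjusted p of 0.094 (edgeR), which became 0.045 without replicate 2 of the knockout at ZT20. DESeq2, which called 36.7% of all genes, called Sod1 at 0.043.

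Cat encodes catalase, the peroxisomal enzyme that splits hydrogen peroxide. At ZT0 wild type held 2683, 3583 and 3471 CPM and the knockout 2948, 2675 and 1851. At ZT12 the levels were 3745, 3020 and 2753 CPM against 2227, 2492 and 2881. The genotypes overlapped at each of the 6 times. From ZT0 to ZT12 the median over 12 livers was 3169 CPM in wild type (2632 to 3809) and 2638 in the knockout (1851 to 3199). At ZT16 and ZT20 the medians over 6 livers were 2428 CPM (1729 to 3237) and 1905 (1501 to 2780). The adjusted p over all times was 0.0021 (edgeR), and 0.00018 without ZT16 and ZT20.

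Gpx1, the selenium enzyme that reduces peroxides with glutathione, held 2513, 1904 and 1962 CPM in wild type and 1749, 1575 and 1645 in the knockout at ZT0. At ZT4 the levels overlapped, with 2136, 2122 and 2054 CPM against 2009, 1498 and 2065. At ZT8 they parted again, with 2231, 1976 and 1736 CPM against 1616, 1553 and 1464. At ZT12 wild type held 2235, 1830 and 1513 CPM and the knockout 987, 1526 and 1453. At ZT16 the values were 691, 1872 and 1711 CPM against 880, 1035 and 921. Replicate 1 of wild type at ZT16 was the lowest of all 36 livers for Gpx1 and the highest for Prdx1, Prdx4 and Prdx5. At ZT20 the levels were 1350, 1766 and 958 CPM against 1301, 891 and 1452. The adjusted p over all times was 0.0091 (edgeR), and 0.0019 without ZT16 and ZT20.

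Age differed between the genotypes as given above, and with age as a covariate the count over all times was 5 (34.7% of all genes). In libraries labelled female alone, 3 genes were called, all lower: Cat at −0.36 ± 0.09, Gpx1 at −0.39 ± 0.12 and Sod2 at −0.24 ± 0.07 on the log2 scale (edgeR, adjusted p 0.018, 0.044 and 0.041). Background there was 17.1% of genes tested. That fit holds the library whose reads go against its label, the only wild-type one labelled female at ZT16. With ZT16 left out of it, 1 gene was called, Cat at −0.34 ± 0.10 (adjusted p = 0.031), where 19% of all genes were, and Gpx1 and Sod2 were at −0.29 ± 0.12 and −0.20 ± 0.08 (0.13 and 0.093). In those labelled male alone none was called, against 14.7% of all genes, and the smallest adjusted p was that of Prdx3, 0.059, at 0.34 ± 0.11. All 5 genes called over all libraries kept their direction in either sex. With cage as a random block in limma, the same 5 genes were called, where 37.5% of all genes were. From ZT16 and ZT20 alone none of the 10 was called by edgeR, where 3.52% of genes were.

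**Figure D3:**
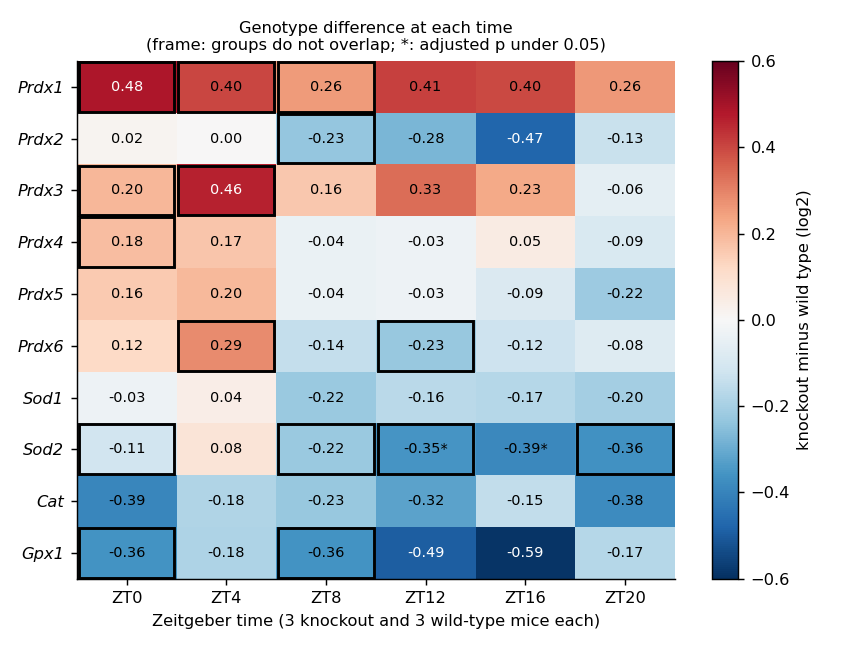
Knockout minus wild type at each Zeitgeber time as log2 fold change (colour and printed value), 3 mice per genotype and time; frames mark times at which the ranges of the genotypes do not overlap and stars an adjusted p under 0.05. Stars stand at Sod2 at ZT12 and ZT16 only, and Prdx1 and Sod2 have the most frames.

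Tested time by time, Sod2 alone gave calls. It was lower at ZT12 (−0.35 ± 0.11) and at ZT16 (−0.39 ± 0.11) on the log2 scale (edgeR, adjusted p = 0.026 and 0.021), where 11.9% and 8.61% of all genes were called. Neither call held under each omission of 1 library. At ZT12 it ended without either of wild-type replicates 1 and 2 or any of the 3 knockout replicates (adjusted p 0.059 to 0.094), and also with the GC trend removed (0.23) or with no filter on low counts (0.16). At ZT16 it ended without wild-type replicate 2 or knockout replicates 1 or 3 (0.099 to 0.17), or with no filter on low counts (0.13). The fits with no filter called 6.24% of all genes at ZT12 and 4.24% at ZT16. At ZT20 the difference was −0.36 ± 0.11 with an adjusted p of 0.053.

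No gene of the 10 was called at ZT0, ZT4, ZT8 or ZT20 by edgeR, where 1.97%, 3.56%, 8.56% and 3.38% of all genes were. The smallest adjusted p of the 10 in edgeR was 0.30 (Cat), 0.19 (Prdx3), 0.23 (Sod2) and 0.053 (Sod2) at these times. DESeq2 made 0, 0, 0 and 1 adjusted calls there (2.86%, 4.79%, 10.3% and 4.78% of all genes). The fit shares 1 estimate of the spread of each gene over the 12 groups. Without the libraries of ZT16 and ZT20, Prdx1 and Cat were called at ZT0 (0.47 ± 0.12 and −0.41 ± 0.10 on the log2 scale), Prdx1 and Prdx3 at ZT4 (0.39 ± 0.12 and 0.46 ± 0.11) and Sod2 at ZT8 (−0.22 ± 0.07). At ZT12 all 5 of Prdx1, Prdx3, Sod2, Cat and Gpx1 were then called. All genes were called at 6.14%, 10.4%, 16.6% and 22.2% at these times in that fit.

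Without replicate 1 of wild type at ZT16, 5 of the 10 genes were called at ZT16, where 19% of all genes then were. They were Prdx1, Prdx2, Prdx4, Gpx1 and Sod2, with adjusted p of 0.018, 0.013, 0.033 and 0.0067 for the first 4. The library left out stood at 102.5 on the first principal component. The other wild-type libraries of ZT16 stood at 16.9 and 36.9 and the knockout ones at 92.2, 60.6 and 66.8. Without it the genotypes thus no longer overlapped on that component. The part of this separation in the 5 calls was not tested. Whether the genotype difference itself varied with time was tested with an interaction term. It was called for none of the 10 genes by edgeR (1.67% of all genes). The smallest adjusted p was that of Sod2, 0.37 in edgeR and 0.043 in DESeq2 (3.73% of all genes).

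Over the day, 7 of the 10 genes fitted a 24 h cosine in wild type, where 56.4% of all genes did, and 7 of the 10 in the knockout, where 48.3% did. In wild type Prdx1, Prdx3, Prdx4 and Prdx5 peaked at ZT17.3 to 18.3 with a peak-to-trough ratio of 1.80 to 2.12. Knockout peaks of the same genes lay at ZT17.7 to 18.3 with ratios of 1.49 to 2.12, and Prdx5 did not pass there (edgeR, adjusted p = 0.057). Gpx1 peaked in the early day, at ZT5.16 in wild type and ZT4.09 in the knockout, with ratios of 1.57 and 1.83. Prdx6 peaked at ZT8.95 in wild type and ZT4.79 in the knockout, with ratios of 1.27 and 1.38. Sod2 passed in wild type alone (peak at ZT15.4, ratio 1.198, adjusted p = 0.038). Prdx2 and Cat passed in the knockout alone (adjusted p = 0.022 and 0.021). In the other genotype Sod2, Prdx2 and Cat had an adjusted p of 0.20, 0.21 and 0.062 (edgeR). Cat peaked at ZT6.01 with a ratio of 1.32 in wild type and at ZT6.82 with 1.40 in the knockout. A test of any difference between the 6 times, with no cosine, called 6 of the 10 genes in each genotype, against 53.6% of all genes in wild type and 49.7% in the knockout. Prdx1, Prdx3, Prdx4, Prdx5 and Prdx6 were called in both. Cat was called in wild type (edgeR, adjusted p = 0.041) and not in the knockout (0.07), and Gpx1 in the knockout (0.032) and not in wild type (0.11). Sod2 in wild type and Prdx2 in the knockout did not pass that test (0.081 and 0.057).

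Most of these rhythm calls were lost without the libraries of ZT16 and ZT20. EdgeR then called 1 of the 10 genes in wild type, Sod2 (adjusted p = 0.039), where 16.3% of all genes were called, and none in the knockout (0.724%). That fit has fewer libraries and covers ZT0 to ZT12 alone. It cannot tell a rhythm that is absent from one that shows mainly outside those hours. The single livers show the break at ZT16 and ZT20. Prdx1 in wild type stayed at 1044 to 1369 CPM in the 12 livers from ZT0 to ZT12 and spanned 1303 to 4563 in the 6 later ones. Prdx4 in wild type lay at 85.8 to 122 CPM and then at 122 to 365. With the GC trend removed, the rhythm calls were 6 in each genotype (44.5% of all genes in wild type and 25.6% in the knockout). The genes changed, however. They were Prdx3, Prdx4, Prdx5, Prdx6, Sod1 and Cat in wild type and Prdx4, Prdx5, Prdx6, Sod1, Sod2 and Cat in the knockout. Of the 7 calls made before in each genotype, 4 were kept in wild type and 3 in the knockout. Prdx1 and Gpx1 were in neither set.

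Single libraries also decided some rhythms. The Sod2 call in wild type ended without any of 8 single libraries (adjusted p 0.052 to 0.13), that of Prdx6 without any of 5 (0.055 to 0.10) and that of Gpx1 without any of 3 (0.062 to 0.095). In the knockout, the Cat call ended without any of 3 (0.055 to 0.072) and the Prdx2 call without either of 2 (0.078 to 0.094). A difference of rhythm between genotypes was called for none of the 10 genes by edgeR (2.23% of all genes). Sod2 had the smallest adjusted p, 0.12, which became 0.025 without replicate 1 of wild type at ZT16 and 0.0062 in DESeq2 (3.81% of all genes).

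Genes nearest in pattern to the 3 members with the smallest rhythm p in wild type were found by the root mean square difference of centred mean log2 CPM over the 12 groups. Closest to Prdx3 were Ttc9c (0.07), Hebp1 (0.08) and Vps45 (0.09), where the median gene stood at 0.45. Nearest to Prdx4 were Psmb1 (0.04), Acp1 (0.05) and Gng5 (0.05), against a median of 0.51. For Prdx5 they were Lsm1 (0.08), Cyp2j6 (0.08) and Mrps28 (0.08), against 0.46.

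**Figure D4:**
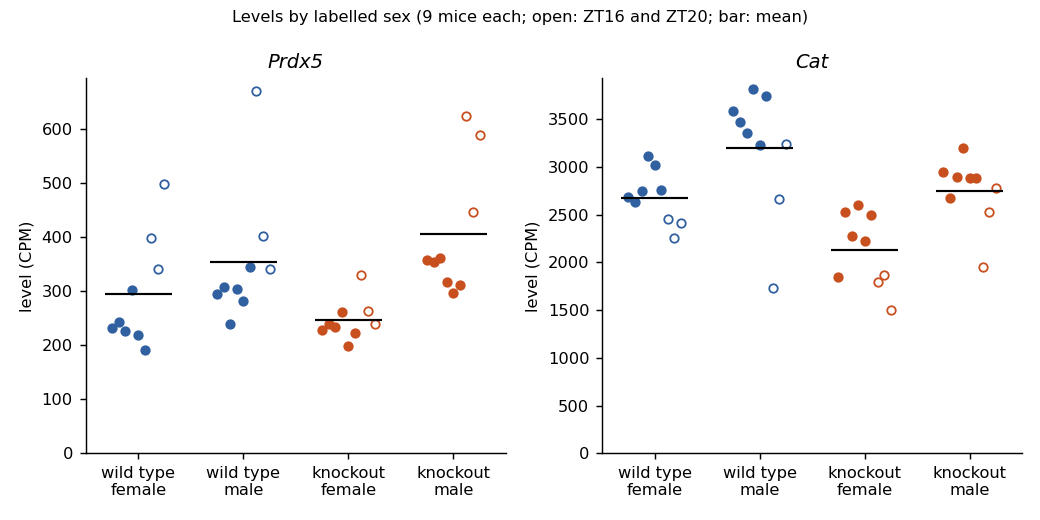
Level in CPM (vertical axis, from 0) of Prdx5 and Cat by genotype and labelled sex, 9 mice each; filled points are ZT0 to ZT12, open points ZT16 and ZT20, and black bars are means. Knockout females lie at 199.5 to 331 CPM for Prdx5 and knockout males at 296 to 625.

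Prdx5 and Cat were lower in females than in males in the knockout. Prdx5 in knockout females ran from 199.5 to 331 CPM (median 239), and in knockout males from 296 to 625 (median 358). The difference was −0.67 ± 0.13 on the log2 scale (edgeR, adjusted p = 0.0011), and −0.50 ± 0.10 (0.0032) without ZT16 and ZT20. Cat ran from 1501 to 2600 CPM in knockout females (median 2227) and from 1947 to 3199 in males (median 2881). Its difference of −0.41 ± 0.10 had an adjusted p of 0.013 (edgeR), but the call ended without replicate 3 of the knockout at ZT0 or replicate 2 at ZT20 (0.062 and 0.099). The other 8 genes gave no call in the knockout, with log2 differences of −0.28 to 0.10 (adjusted p 0.23 to 1). Of all genes, 6.46% differed by sex in the knockout, 3.06% being lower in females.

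In wild type none of the 10 genes was called by edgeR (3.99% of all genes) or DESeq2 (6.24%). The smallest adjusted p in edgeR was that of Cat, 0.15, at −0.26 ± 0.10 on the log2 scale. Cat ran from 2256 to 3114 CPM in wild-type females and from 1729 to 3809 in males. Without the library whose Xist and Y-linked reads go against its female label, replicate 3 of wild type at ZT16, its difference was −0.35 ± 0.10 (adjusted p = 0.032), and without replicate 1 of that group −0.31 ± 0.09 (0.026). It was −0.30 ± 0.08 without ZT16 and ZT20 (0.018). Prdx5 in wild type differed by −0.21 ± 0.13 (adjusted p = 0.41), and the other 8 genes by −0.18 to 0.13 (0.43 to 0.98). A sex difference that itself differed between genotypes was called for none of the 10 by edgeR (0.0985% of all genes) or DESeq2 (0.47%). Prdx6 and Prdx5 had the smallest adjusted p in edgeR, 0.54 and 0.55.

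Other genes of the pathway were read in 6 lists over all times, against the same 35.7% background. In the thioredoxin system, which returns electrons to peroxiredoxins or repairs them, 2 of 11 were higher and 2 lower. Srxn1, sulfiredoxin, was higher by 0.25 ± 0.06 on the log2 scale, and Txnrd2, the mitochondrial thioredoxin reductase, by 0.23 ± 0.07. Sesn1, a stress-induced sestrin, was lower at −0.30 ± 0.08, as was Txnip, the thioredoxin-binding inhibitor, at −0.40 ± 0.11 (edgeR, adjusted p 0.0029 to 0.0094 for these 4). The Txnrd2 call ended without ZT16 and ZT20, at 0.13 ± 0.07 (adjusted p = 0.11), and the other 3 calls of this list held.

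In the glutathione list, 2 of 8 tested genes were higher and 2 lower. The 2 subunits of the enzyme that starts glutathione synthesis went opposite ways, the catalytic Gclc higher by 0.26 ± 0.09 and the modifier Gclm lower at −0.22 ± 0.06 on the log2 scale. Of the glutaredoxins, mitochondrial Glrx2 was higher by 0.20 ± 0.05 and cytosolic Glrx lower at −0.36 ± 0.10 (edgeR, adjusted p 0.0027 to 0.021 for these 4). Among the other dismutases and glutathione peroxidases, 0 of 7 were higher and 2 lower, Gpx7 at −1.58 ± 0.15 and Gpx6 at −1.51 ± 0.24 on the log2 scale. The plasma enzyme Gpx3 was called as well without ZT16 and ZT20, higher by 0.37 (adjusted p = 0.039). It was chosen after its values were seen.

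Oxidases that release hydrogen peroxide had 2 of 9 tested genes higher and 4 lower. Uox, urate oxidase, was lower at −1.04 ± 0.12 on the log2 scale, and Ddo, D-aspartate oxidase, at −0.60 ± 0.10. Hao2, a peroxisomal hydroxy acid oxidase, was higher by 3.37 ± 0.30, and Acox2, which acts on branched fatty acids and bile acid precursors, by 0.43 ± 0.09 (edgeR, adjusted p 5.2e-10 to 0.00023 for these 4). Summed over the list, levels from ZT0 to ZT12 ran from 2233 to 4698 CPM in wild type and from 1763 to 2820 in the knockout, with overlap. Without ZT16 and ZT20 the lower calls were 2. Peroxins, which assemble peroxisomes and import catalase and the oxidases, had 1 of 12 higher and 2 lower (3 higher and 2 lower without ZT16 and ZT20), and their summed level from ZT0 to ZT12 was 771 to 931 CPM in wild type and 803 to 854 in the knockout.

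Among 7 regulators of antioxidant genes none was higher and 3 were lower. Ppara, the fatty acid receptor of hepatocytes, stood at −0.92 ± 0.16, Bach1, a repressor at antioxidant response elements, at −0.89 ± 0.09 and Foxo3 at −0.64 ± 0.07 on the log2 scale (edgeR, adjusted p 1.9e-08 to 3.4e-05).

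**Figure D5:**
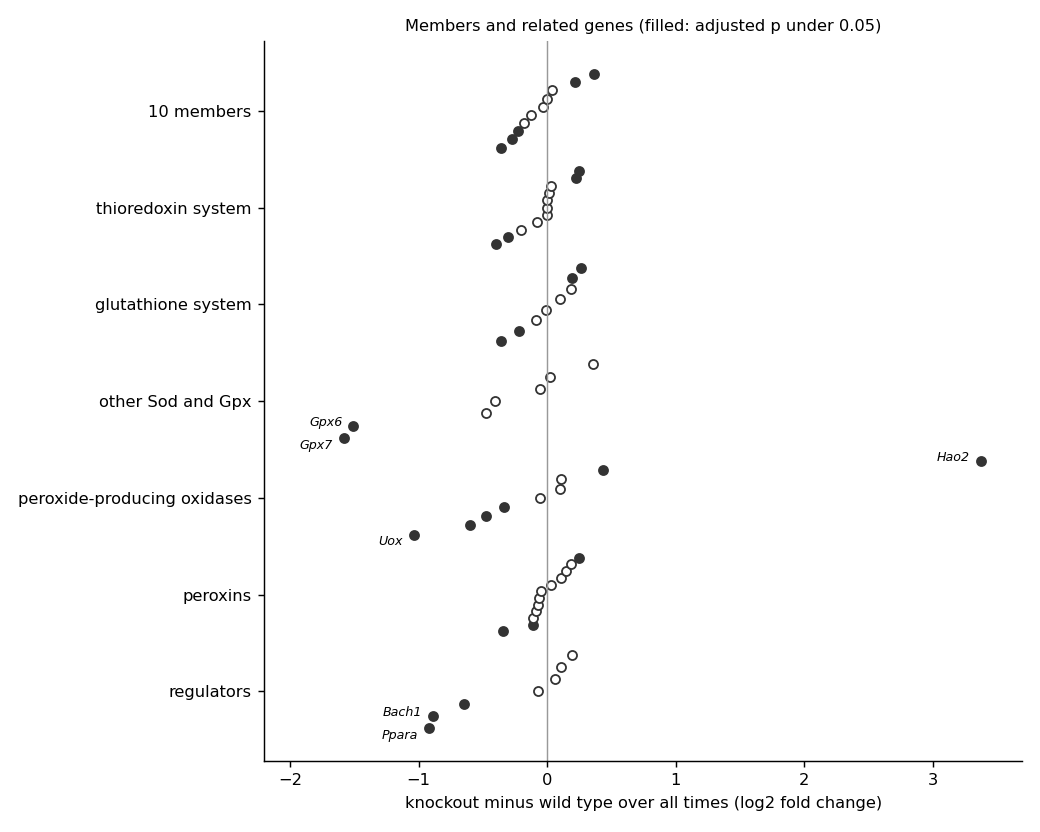
Knockout minus wild type over all times (log2 fold change, horizontal axis) for the 10 genes and for the tested genes of 6 related lists, 1 point per gene; filled points have an adjusted p under 0.05 and called genes beyond 0.8 in size are named. The 10 genes span −0.36 to 0.37, while Hao2 stands at 3.37 and Gpx7 at −1.58.

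Markers of the liver's cell types were measured in the same fit. Of 7 tested hepatocyte markers 1 was higher and none lower (3 higher without ZT16 and ZT20), and their summed level was 19900 to 42800 CPM over all groups. All 12 Kupffer cell and macrophage markers were lower in the knockout, with sums at ZT0 to ZT12 of 138 to 574 CPM in wild type and 95.4 to 324 in the knockout. At ZT16 and ZT20 these sums were 199 to 569 and 132 to 435 CPM. Of 9 sinusoidal endothelial markers 6 were lower, with sums of 165 to 339 CPM and 179 to 311 at ZT0 to ZT12. With ZT16 and ZT20 left out, 6 were lower and 2, Stab2 and Lyve1, higher, at 0.30 ± 0.11 and 0.54 ± 0.18 on the log2 scale (edgeR, adjusted p = 0.028 and 0.023). Of 8 stellate cell markers 3 were lower, with sums of 105 to 407 and 100 to 383. Both neutrophil markers that could be tested gave no call. No defining marker of hepatocytes, Kupffer, endothelial or stellate cells was at 0 in all 3 livers of any group. In bulk liver, fewer cells of a type and less RNA per cell cannot be told apart, and the part of these cells in the lower Sod2, Cat and Gpx1 was not tested.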

How the data were processed

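Messenger RNA from 36 mouse livers was read with a stranded kit, per the labels' protocols, and CASAVA, STAR 2.4.0f1 and the mm9 build are named in the submitters' processing notes. The counting program and annotation are not given in the sources used here. The deposited values are counts (whole reads per gene), which the table is named as sense-strand and minimum, and totals lie within 12657858 to 12839653. Genes passing edgeR's filter (minimum count 10, minimum total 15) were tested with edgeR 4.0.16 (R 4.3.3) by quasi-likelihood F tests after TMM scaling, on means of the 12 groups with labelled sex as a covariate, and on a 24 h cosine per genotype. P-values were adjusted by Benjamini-Hochberg over 13201 genes and called under 0.05. CPM used TMM library sizes. DESeq2 1.42.0 was an alternative. The GC trend was removed as an offset fitted over 97.8% of tested genes, an alternative chosen after seeing the data, as were the fits of ZT16 and ZT20 alone, of females without ZT16, and with cage as a random block (limma 3.58.1, voom and duplicateCorrelation). Named are the 10 genes, of each list the 4 called genes or fewer with the smallest p, and marker genes whose call depends on ZT16 and ZT20, which were chosen after their values were seen. The members and lists were chosen with earlier results of these data known. Listed symbols without a row in the table (Gpx5, Dao, Pex2, Alb) are not analysed here, and 1 gene of the oxidase list is not reported here. P-values of edgeR weigh a difference against the spread between these mice, each taken as independent. They do not cover a litter or preparation day that mice of a group may have shared.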

Additional observations from a re-analysis of the deposited data

How the results depend on the processing

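The labels give the mice no replicate numbers that groups share. Of the 20 cages, 5 held a wild-type and a knockout mouse of the same time and labelled sex. A comparison paired within those cages was not run. With cage as a random block in limma, each count of calls that edgeR gave, over all times, at each time, for rhythm and for sex, was within 1.5 times, and the estimated correlation within a cage was −0.091 to −0.009. Limma without the block gave 1 at ZT20 (3.41% of all genes). Over all times 5 of the 10 genes were called, and also with DESeq2 size factors, no filter on low counts, no sex covariate, age as a covariate, the GC trend removed and without ZT16 and ZT20, while DESeq2 called 6. In that order these alternatives called 35.3%, 20.6%, 33%, 34.7%, 39% and 41.2% of all genes, and DESeq2 36.7%. Males alone gave 0 calls, females alone 3, females without ZT16 1, and ZT16 with ZT20 alone 0 (14.7%, 17.1%, 19% and 3.52% of all genes). Leaving out 1 library gave 5 to 6. Without ZT16 and ZT20 the calls were 2 at ZT0, 2 at ZT4, 1 at ZT8 and 5 at ZT12 (6.14%, 10.4%, 16.6% and 22.2% of all genes). That fit gave 1 for sex in wild type, 1 for rhythm in wild type and 0 for rhythm in the knockout (9.98%, 16.3% and 0.724%). With no filter on low counts the calls were 0 at ZT12, 0 at ZT16 and 4 for rhythm in wild type (6.24%, 4.24% and 31.7% of all genes). Removing the GC trend gave 0 at ZT12 (13.5% of all genes). DESeq2 gave 1 at ZT20, 1 for the interaction and 1 for the rhythm difference (4.78%, 3.73% and 3.81% of all genes). Age as a covariate gave 1 at ZT20 (3.13%). Leaving out 1 library gave 0 to 1 at ZT12, 0 to 5 at ZT16, 0 to 1 at ZT20, 4 to 8 for rhythm in wild type, 5 to 8 in the knockout, 0 to 1 for the rhythm difference, 1 to 2 for sex in the knockout and 0 to 1 in wild type. The share of all genes is given for 1 such omission alone, 19% at ZT16 without replicate 1 of wild type at ZT16. The cause of each change was not tested, and a subset also holds fewer libraries. No called value reversed. With 3 mice per group, log2 standard errors at one time reached 0.29 for a member, so small differences at single times could be missed. The size that could be missed differs by gene, the standard error of Sod2 being 0.11 at each time.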
